A study of Homo sapiens with 19 samples.

Results

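The integrated stress and unfolded protein response was described here by 10 genes, ATF4, DDIT3, PPP1R15A, PPP1R15B, ASNS, TRIB3, CHAC1, DDIT4, XBP1 and HSPA5. They were taken from a fixed list, which was chosen with earlier results of these data known. The genes were found by Ensembl gene ID among the 19942 rows of the TPM table and of the eCLIP table. In the rRNA-depleted table, 70 of 256980 transcripts belonged to them. All 10 genes were found in every table and passed the minimum of 1 TPM or 1 RPKM in every RNA-seq comparison.

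In the integrated stress response, kinases that sense different stresses phosphorylate the translation factor eIF2. Bulk translation then declines, while the mRNA of the transcription factor ATF4 is translated more. ATF4 and its partner DDIT3 (CHOP) drive genes for amino acid metabolism, redox balance and cell death, and PPP1R15A (GADD34) closes the loop by bringing a phosphatase to eIF2. The unfolded protein response of the endoplasmic reticulum (ER) shares this arm through the kinase EIF2AK3 (PERK) and adds the IRE1-XBP1 and ATF6 arms, which raise ER chaperones such as HSPA5 (BiP). Sodium arsenite (AS), which causes oxidative stress, is a standard way to phosphorylate eIF2 and to form stress granules (SGs). SGs are cytoplasmic assemblies of untranslated mRNA and RNA-binding proteins that depend on G3BP1 and G3BP2.

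All samples came from SH-SY5Y, a human neuroblastoma line. RNA was sequenced in untreated cells and after AS (rRNA-depleted libraries), after control siRNA (siCtrl), siG3BP1 or siG3BP2 (poly-A libraries), and in AS-treated cells from both the lysate, named Total, and the purified SG cores, named SG (poly-A libraries), with 1 library each. The Total lysate was taken after low-speed spins, and SG cores were pulled down with an antibody to G3BP1. RNA bound to G3BP1 or G3BP2 was measured by eCLIP, in which crosslinked RNA is precipitated with the protein, and each protein had 2 libraries without and 2 with AS. The labels give 500 μM AS for 1 h for the rRNA-depleted library and 50 mM for 1 h for the others, including the siRNA libraries and the eCLIP libraries titled Ctrl, and the methods text names the former dose. With 1 library there is no replicate check of an RNA-seq difference, and for eCLIP no source says that the duplicates were separate cultures, so the p-values may cover technical spread only.

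The siRNAs lowered their targets, with G3BP1 at 18.7 TPM in siCtrl and 6.0 TPM in siG3BP1, and G3BP2 at 38.1 TPM in siCtrl and 11.4 TPM in siG3BP2. HSPA1A, a heat-shock gene that arsenite induces, stood at 12.3 to 15 TPM in the siRNA libraries, at 79.3 TPM in Total, and at 225 TPM in SG. In the rRNA-depleted table its most abundant transcript was listed at 0 RPKM in untreated and 0.0464 RPKM in AS-treated cells, so it does not check the treatment there, and it shares reads with its near-identical copy HSPA1B. HMOX1, a heme oxygenase gene of the oxidant response, differed little between siCtrl (4.83 TPM), Total (5.87 TPM) and SG (5.34 TPM). It stood at 5.29 TPM in siG3BP1 and 3.07 TPM in siG3BP2. Its most abundant transcript in the rRNA-depleted libraries was at 0.629 RPKM in untreated and 1.83 RPKM in AS-treated cells. Of 8 markers of noradrenergic neuroblastoma, 7 were above 1 TPM in every poly-A library and TH, the tyrosine hydroxylase gene, was at 0 to 0.389 TPM, and of 7 markers of other cell types only COL1A1 was above 1 TPM. The values of a gene in bulk RNA cannot tell fewer cells that express it from less RNA per cell.

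The promoters of the 10 genes were read first, because the DNA elements bound by these pathways are known. RefSeq promoters on GRCh38.p14 were found for all 10 genes (16 start sites), and the 250 bases before each start were searched on both strands. The element of ATF4-containing dimers was searched as TGATGNAA, the cAMP response element as TGACGTCA, an element of XBP1 and ATF6 as TGACGTGG, and the ER stress response element as CCAAT, any 9 bases and CCACG. TGATGNAA was found at ASNS, CHAC1 and PPP1R15B, and 3.89% of all 27305 genes and 3.14% of all 35116 promoters held it. TGACGTCA was found at PPP1R15A (2.03% of all genes, 1.65% of all promoters). The ER stress response element was found at HSPA5 and XBP1, while 0.0916% of all genes and 0.0740% of all promoters held it (26 promoters). TGACGTGG was found at none of the 10 genes, in 0.780% of all genes and in 0.612% of all promoters. The windows around the 6 matches are shown, because they hold elements known for these pathways, 5′ to 3′ on the strand of the gene with the match in capitals.
ASNS (chr7:97872444-97872501, minus strand): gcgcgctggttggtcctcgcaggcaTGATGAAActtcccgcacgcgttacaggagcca
CHAC1 (chr15:40953237-40953294, plus strand): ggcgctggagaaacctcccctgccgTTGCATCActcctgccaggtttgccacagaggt
PPP1R15B (chr1:204412012-204412067, minus strand): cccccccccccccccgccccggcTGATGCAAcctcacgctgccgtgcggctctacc
PPP1R15A (chr19:48872338-48872395, plus strand): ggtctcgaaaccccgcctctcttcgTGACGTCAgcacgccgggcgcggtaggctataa
HSPA5 (chr9:125241366-125241434, minus strand): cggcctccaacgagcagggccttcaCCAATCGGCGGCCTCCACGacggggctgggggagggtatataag
XBP1 (chr22:28800578-28800646, minus strand): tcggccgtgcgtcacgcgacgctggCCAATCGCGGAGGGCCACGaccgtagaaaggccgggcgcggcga
The CHAC1 match lies on the opposite strand to the gene. The matches span positions -68 to -61 before the start at ASNS, -209 to -202 at CHAC1, -227 to -220 at PPP1R15B, -58 to -51 at PPP1R15A, -66 to -48 at HSPA5 and -52 to -34 at XBP1. A match is a string of letters and was not tested for binding.

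The 10 genes were mostly small. Of the canonical transcripts, 8 were shorter than the median of 2899 nt over 19701 protein-coding genes, and 9 genes were shorter than the median gene of 27294 bp. DDIT4 spanned 2118 bp on chromosome 10 (72273919 to 72276036) and ATF4 2989 bp on chromosome 22 (39519695 to 39522683), in the GENCODE annotation of GRCh38. PPP1R15B on chromosome 1 (204396492 to 204411887) had the longest transcript at 5259 nt, of which 2714 nt were 3′ UTR. The GC content ran from 42.7% in ASNS to 61.5% in TRIB3. An ATG in the 5′ UTR followed by a stop codon in its frame before the coding start was present in ATF4, DDIT3, PPP1R15A, PPP1R15B and TRIB3, that is 5 of 10, and in 35.0% of all canonical transcripts. Short upstream reading frames of this kind are known to let several of these mRNAs escape the translation block, but translation was not measured here.

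DDIT3, DDIT4, CHAC1, PPP1R15A and TRIB3 were higher after 1 h of AS in the rRNA-depleted libraries, at 2.37 to 4.42 times the untreated level. The other 5 genes, among them ATF4 itself and HSPA5, were at 1.25 to 1.70 times and were not called. A gene was called when the ratio of its summed transcript values was above 2 or below 0.5 with the higher library above 1, and by this rule 5 of the 10 were called higher and 0 lower, where 9.79% of all 16457 genes compared were called higher and 3.93% lower. The median ratio of the 10 was 2.03, beside 1.21 over all genes compared. The median ratio over all genes above 1 in both libraries was 1.20 (0.27 on the log2 scale), so each ratio is to be read against it. With that median set to 1, the calls over all genes went from 1611 higher and 647 lower to 900 higher and 895 lower, TRIB3 was no longer called and DDIT3, DDIT4, CHAC1 and PPP1R15A were.

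DDIT3 encodes CHOP, the transcription factor that links lasting stress to cell death. Its most abundant transcript went from 16 reads (1.38 RPKM) to 65 reads (6.61 RPKM), a ratio of 4.79 with a 95% interval of 2.74 to 8.86. The intervals here come from the exact (Clopper-Pearson) binomial interval of the reads of both libraries and cover counting error only, not the spread between cultures. All 6 DDIT3 transcripts in the table were called higher, with ratios of 3.70 to 4.79. The gene shares 2769 bp with another protein-coding gene on its strand, and reads of the 2 cannot be told apart. On the other strand it overlaps MARS1 (982 bp) and MBD6 (1028 bp), and whether the counting used strand is not given.

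TRIB3, a pseudokinase gene downstream of ATF4 and CHOP, had 38 reads (1.21 RPKM) before and 74 reads (2.78 RPKM) after AS, at a ratio of 2.29 (1.53 to 3.49). CHAC1, which encodes an enzyme that degrades glutathione, went from 39 to 97 reads (1.93 to 5.66 RPKM) at a ratio of 2.93 (2.0 to 4.37). The interval of TRIB3 included 2 and that of CHAC1 began at 2.0, so at this depth the counts do not fix the side of the threshold of 2 for TRIB3.

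DDIT4 encodes REDD1, an inhibitor of mTORC1. Its most abundant transcript, annotated as a retained intron, went from 57 reads (2.34 RPKM) to 179 reads (8.67 RPKM), a ratio of 3.70 (2.73 to 5.08), and all 5 of its transcripts were called higher, among them the canonical protein-coding one at 3.62 (54 and 166 reads). ASNS, the asparagine synthetase gene, had 307 reads (14.5 RPKM) before and 366 reads (20.4 RPKM) after AS on its most abundant transcript, at a ratio of 1.40 (1.20 to 1.64). Its 17 transcripts ran from 0.720 to 1.47, and it held all 4 transcripts of the 10 genes with a ratio below 1. A long non-coding RNA gene on the same strand covers 20855 of the 20866 bp of ASNS, so their reads may be shared. The intervals of ASNS and DDIT4, both downstream of ATF4, did not overlap.

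The eIF2 phosphatase subunits differed from each other in level and in ratio. PPP1R15A, the inducible subunit, went from 114 reads (3.65 RPKM) to 265 reads (10.00 RPKM), a ratio of 2.74 (2.19 to 3.44). PPP1R15B (CReP), the constitutive subunit, went from 920 reads (13.2 RPKM) to 1327 reads (22.4 RPKM), a ratio of 1.70 (1.56 to 1.85), and was not called. The intervals of the 2 ratios did not overlap. PPP1R15B remained the higher of the 2 in these libraries, at 3.61 times PPP1R15A in untreated and 2.24 times in AS-treated cells, in RPKM. A long non-coding RNA, PPP1R15B-AS1, covers PPP1R15B on the other strand, and whether the counting used strand is not given in the sources used here.

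ATF4 itself, at 802 reads (42.5 RPKM) before and 1052 reads (65.7 RPKM) after AS on its most abundant transcript, was the gene with the highest RPKM of the 10 in both libraries. Its ratio was 1.55 (1.41 to 1.70), and its 11 transcripts ran from 1.40 to 1.57. The most abundant XBP1 transcript went from 339 reads (14.0 RPKM) to 417 reads (20.3 RPKM), a ratio of 1.45 (1.25 to 1.68). XBP1 mRNA is spliced by IRE1 to give the active factor, and reads counted by overlap with a transcript do not separate the spliced from the unspliced form. HSPA5, the ER chaperone BiP, had 870 reads (29.3 RPKM) before and 925 reads (36.8 RPKM) after AS, a ratio of 1.25 (1.14 to 1.38), and its 15 transcripts ran from 1.24 to 1.26. That was close to the 1.19 median of all transcripts above 1 RPKM in both libraries.

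By transcript, 20 of the 70 were called higher and 0 lower, where 6.84% and 2.01% of all 100705 transcripts compared were. The 20 were all the transcripts of DDIT3, DDIT4, CHAC1, PPP1R15A and TRIB3. Transcripts of a gene share their reads and are not replicates, and 66 of the 70 had a ratio above 1.

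**Figure D1:**
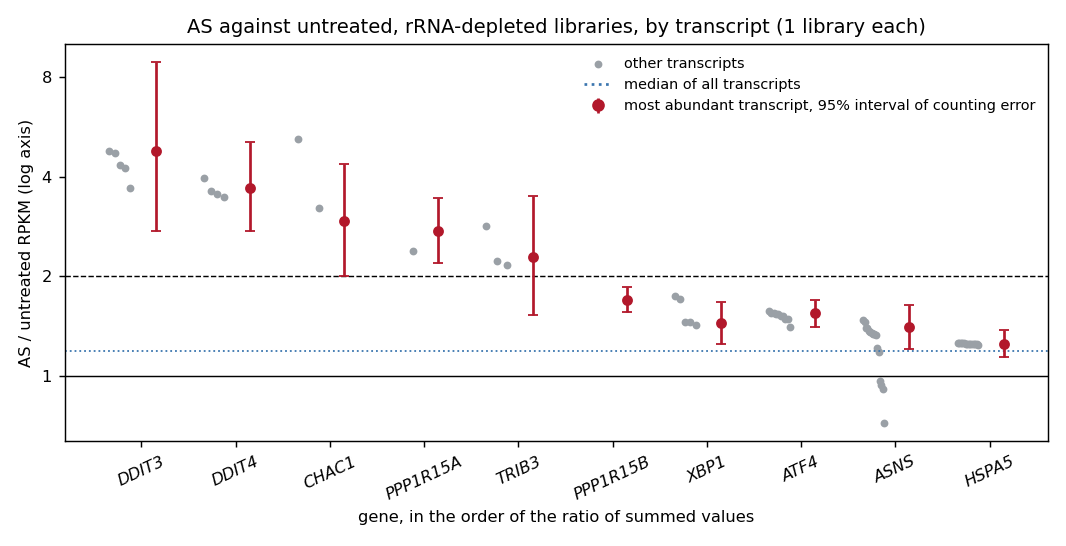
AS to untreated ratio of RPKM in the rRNA-depleted libraries (log axis) for each transcript of the 10 genes, 1 library per condition. Red points with bars are the most abundant transcript with its 95% interval of counting error, grey points are the other transcripts, the dashed line marks a ratio of 2 and the dotted line the median of all transcripts (1.19). All transcripts of DDIT3, DDIT4, CHAC1, PPP1R15A and TRIB3 lie above 2, and those of HSPA5 lie close to the median.

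Other genes of the pathways were counted in 4 lists with the same rule. Of 14 genes for eIF2 and its regulators, 0 were called. Of 26 compared genes of the ATF4 program outside the 10, 7 were called higher and 1 lower. ATF3, a stress-induced transcription factor, had the largest ratio, at 11 (summed RPKM 4.14 and 45.7), and GDF15, a secreted stress cytokine, followed at 4.83 (0.483 and 2.33). SLC6A9, a glycine transporter gene, was lower at 0.381 (2.0 and 0.763). Of 24 ER chaperone and ER-associated degradation genes, 3 were called higher, HYOU1 at 3.54, HERPUD1 at 2.36 and ERO1B at 2.04. HYOU1 encodes an ER chaperone and HERPUD1 a protein of ER-associated degradation. Of 8 ER stress sensor genes, ERN1 (IRE1) was called higher at 2.03 and ATF6B was called because it was listed at 0 in the untreated library, so no ratio is given. Over the 72 list genes compared, 16.7% were called higher and 1.39% lower, beside 9.79% and 3.93% of all genes, and the median ratio was 1.34. With the median ratio of all genes set to 1, the list genes called higher went from 12 to 5, and HERPUD1 (1.96), ERO1B (1.69) and ERN1 (1.69) were no longer called. With 1 added to both libraries SLC6A9, at 0.588, was no longer called. The summed values count a read once for each transcript it overlaps, so they serve for ratios and not for levels.

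In the poly-A libraries, none of the 10 genes was called after either knockdown. The ratio to siCtrl ran from 0.825 (TRIB3) to 1.06 (PPP1R15A) with siG3BP1 and from 0.722 (TRIB3) to 1.22 (DDIT4) with siG3BP2, and the ratio of siG3BP2 to siG3BP1 from 0.875 (TRIB3) to 1.21 (DDIT4). Of all 12280 genes compared, 2.53% were called higher and 3.69% lower with siG3BP1. With siG3BP2, 2.43% of 12229 genes were called higher and 5.62% lower. Between siG3BP2 and siG3BP1, 2.43% of 12179 genes were called higher and 3.92% lower. The median ratio of the 10 was 0.948, 1.00 and 1.08 in these 3 comparisons, beside 0.940, 0.916 and 0.970 over all genes compared. The 3 comparisons share libraries and are not independent.

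TRIB3 stood at 24.5 TPM in siCtrl, 20.2 TPM in siG3BP1 and 17.7 TPM in siG3BP2. It was the only member with a range over the 3 libraries above 1.3 times, at 1.39 times. DDIT4 stood at 55.1, 55.4 and 67.3 TPM in the same order. PPP1R15A, at 22.4, 23.7 and 23.6 TPM, had the narrowest range, at 1.06 times. DDIT3 stood at 11, 11.3 and 12.4 TPM, CHAC1 at 19.1, 17.8 and 19.7 TPM and PPP1R15B at 14.4, 12.3 and 13.4 TPM.

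The order of levels in siCtrl was ATF4 at 265 TPM, HSPA5 at 127 TPM, XBP1 at 89.5 TPM, ASNS at 66.7 TPM, DDIT4, TRIB3, PPP1R15A, CHAC1, PPP1R15B and DDIT3. With 1 library per condition the spread that would separate neighbours in this order is not known. The order of TRIB3, PPP1R15A and CHAC1 changed between the siRNA libraries. The median of the 12391 genes above 1 TPM in any siRNA library was 13.2 TPM in siCtrl, which lay between PPP1R15B and DDIT3. PPP1R15B was number 9 of the 10 in siCtrl and number 5 in the untreated rRNA-depleted library. These libraries differ in RNA selection, in cell treatment and in unit.

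Among the other pathway genes, ERN1 and ALDH1L2, a mitochondrial folate enzyme gene, were called lower with both siRNAs, each against the same siCtrl library. ERN1 stood at 3.05 TPM in siCtrl, 0.922 TPM in siG3BP1 and 0.902 TPM in siG3BP2. ALDH1L2 stood at 1.95, 0.793 and 0.795 TPM. MBTPS1, the site-1 protease that cleaves ATF6, was called lower with siG3BP2 at 23.6 TPM against 51.5 TPM in siCtrl. OMA1, a mitochondrial protease gene that feeds stress signals to eIF2, stood at 0.222 TPM in siCtrl, 3.08 TPM in siG3BP1 and 0.664 TPM in siG3BP2, and was called higher with siG3BP1 and lower in siG3BP2 against siG3BP1. These were all the calls among the 78 list genes in the knockdown comparisons, and of them only MBTPS1 was above 10 TPM in either library. Of the list genes compared, 1.39% were called higher and 2.78% lower with siG3BP1, beside 2.53% and 3.69% of all genes. With siG3BP2 the shares were 0% and 4.23%, beside 2.43% and 5.62%. For siG3BP2 against siG3BP1 they were 0% and 1.43%, beside 2.43% and 3.92%. With 1 added to both libraries ALDH1L2 was at 0.608 with siG3BP1 and 0.609 with siG3BP2 and was no longer called.

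**Figure D2:**
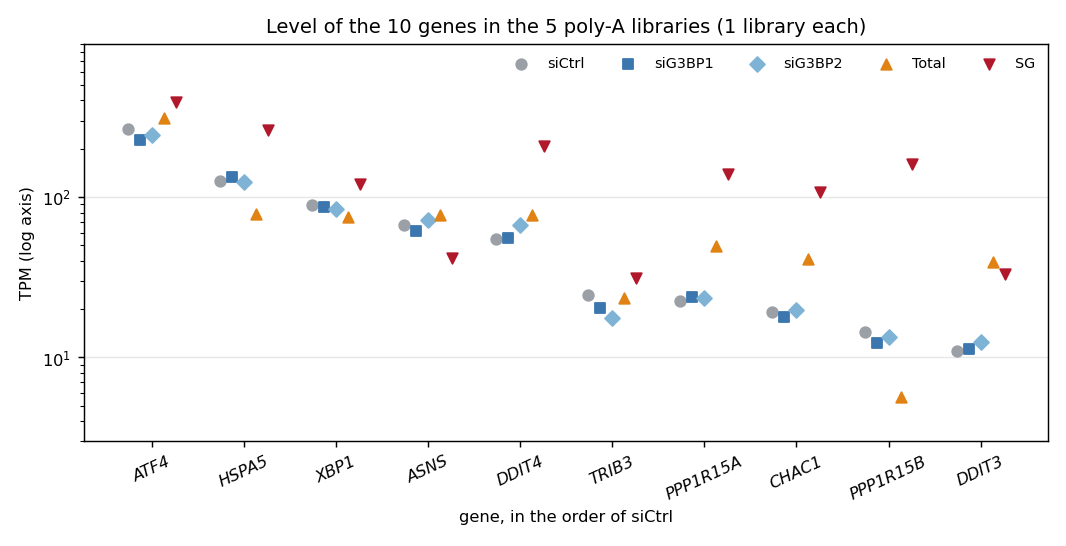
TPM (log axis) of the 10 genes in siCtrl, siG3BP1, siG3BP2, Total and SG, 1 library each, in the order of siCtrl. The 3 siRNA libraries lie close together for each gene, DDIT3, PPP1R15A and CHAC1 are higher in Total, and PPP1R15B is lowest in Total (5.63 TPM) and high in SG (160 TPM).

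Total came from AS-treated cells and siCtrl from transfected cells, and treatment, transfection and clearing of the lysate cannot be told apart between them. DDIT3, PPP1R15A and CHAC1 were higher in Total and PPP1R15B was lower. That was 3 of 10 higher, where 2.37% of all 12173 genes compared were called higher, and 1 of 10 lower, where 27.2% were. The median ratio of the 10 was 1.16, beside 0.718 over all genes compared. The ratio also went with transcript length, a check chosen after the values were seen. With genes cut into 4 groups by length of the canonical transcript, the median ratio was 0.949, 0.778, 0.646 and 0.553, from shortest to longest. The shortest group held 5 of the 10 genes and the longest held PPP1R15B. How much of each ratio goes with length was not tested. The median ratio of all genes was 0.750. With it set to 1, the calls over all genes went from 288 higher and 3311 lower to 678 higher and 1951 lower, and the call of PPP1R15B as lower was lost.

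DDIT3 stood at 11 TPM in siCtrl and 39.6 TPM in Total, a ratio of 3.62. PPP1R15A stood at 22.4 and 49.3 TPM (2.20) and CHAC1 at 19.1 and 41.1 TPM (2.16). These 3 were also called higher in the rRNA-depleted libraries, which share no library with this comparison. DDIT4 (1.40) and TRIB3 (0.962), called in the rRNA-depleted libraries, were not called here. ATF4 (1.17) and ASNS (1.16) lay above 1, and XBP1 (0.836) and HSPA5 (0.618) below it.

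PPP1R15B stood at 14.4 TPM in siCtrl and 5.63 TPM in Total, a ratio of 0.392, while it was at 1.70 in the rRNA-depleted comparison. PPP1R15A was 1.56 times PPP1R15B in siCtrl and 8.76 times in Total.

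**Figure D3:**
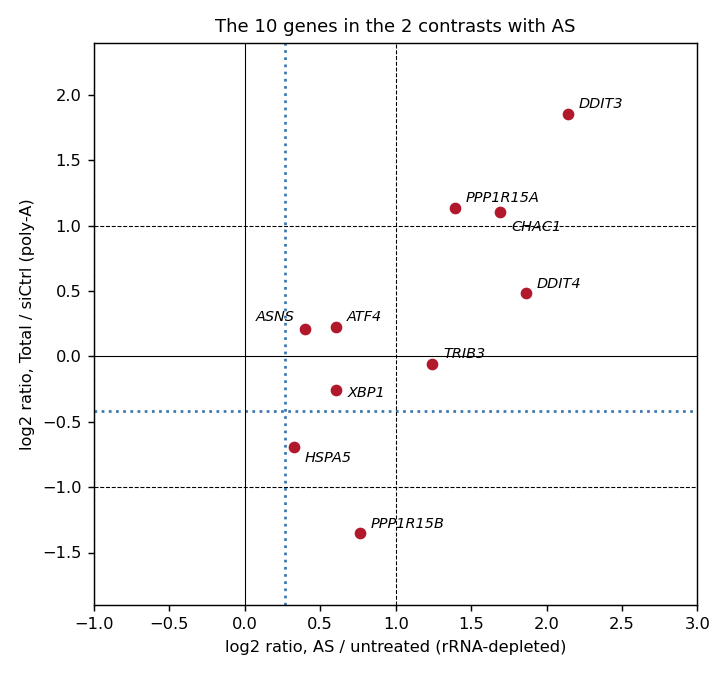
The log2 ratio of the 10 genes for AS against untreated in the rRNA-depleted libraries (x axis) and for Total against siCtrl in the poly-A libraries (y axis), 1 library each. Dashed lines mark a log2 ratio of 1 on both axes and of -1 on the y axis, and dotted lines the median of all genes. DDIT3, PPP1R15A and CHAC1 lie above 1 on both axes, DDIT4 and TRIB3 on the x axis only, and PPP1R15B lies below -1 on the y axis.

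Of the 78 other pathway genes, 72 could be compared between Total and siCtrl, and 2 were higher and 18 lower, with a median ratio of 0.792. That was 2.78% higher and 25% lower, beside 2.37% and 27.2% of all genes compared. The ATF4 program had 1 higher, ATF3 at 5.01 times (5.77 and 28.9 TPM), and 9 lower, with SLC6A9 at 0.144 and VLDLR, a lipoprotein receptor gene, at 0.208. Of the 6 list genes called both here and in the rRNA-depleted libraries, ATF3 and SLC6A9 had the same direction. The other 4 had opposite directions, lower in Total and higher after AS: GDF15 (0.471 and 4.83), BBC3 (0.315 and 2.23), ERN1 (0.394 and 2.03) and ATF6B (0.356, and listed at 0 in the untreated library). The median ratio of all genes was itself below 1 in Total (0.750) and above 1 after AS (1.20). With it set to 1, GDF15 (0.628) and ERN1 (0.525) were no longer called lower in Total. BBC3 (1.86) and ERN1 (1.69) were then no longer called higher after AS. In the eIF2 list, OMA1 was higher at 6.23 (0.222 and 1.38 TPM), and EIF2AK3 (PERK, 0.174) and DELE1, which relays mitochondrial stress to the eIF2 kinases (0.411), were lower. With 1 added to both libraries OMA1 was at 1.95 and was no longer called. With the median ratio of all genes set to 1, DELE1 was at 0.548 and was no longer called. In the sensor list 3 were lower, CREB3L2 (0.273), ATF6B (0.356) and ERN1 (0.394). In the ER chaperone and degradation list 4 were lower, with EDEM1 (0.209), SEL1L (0.321) and ERO1A (0.472) the largest.

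SG cores were compared with the lysate by the ratio of SG to Total on TPM + 1, called SG-enriched above 2 and SG-depleted below 0.5. PPP1R15B was the most enriched of the 10, from 5.63 TPM (Total) to 160 TPM (SG), at a ratio of 24.3 on TPM + 1. HSPA5 (3.30), PPP1R15A (2.77), DDIT4 (2.67) and CHAC1 (2.57) were also SG-enriched. XBP1 (1.60), TRIB3 (1.32), ATF4 (1.25), DDIT3 (0.845) and ASNS (0.543) were in neither class. A low value in Total lowers its ratio to siCtrl and raises the SG ratio, because both comparisons share the Total library. By the rule above, 5 of 10 were enriched and 0 depleted, beside 62.9% (enriched) and 9.45% (depleted) of all 13560 genes compared. The median ratio of the 10 was 2.08, beside 2.86 over all genes compared.

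The median gene above 1 TPM in both libraries was at 2.78 times (1.47 on the log2 scale). Relative to it, PPP1R15B stayed enriched, 3 genes (ATF4, DDIT3 and ASNS) were called depleted, and CHAC1 and DDIT4 came to just below the median (-0.09 and -0.05 on the log2 scale of TPM + 1). Over all genes the same scaling moved the calls from 8528 higher and 1282 lower to 4505 higher and 3271 lower. PPP1R15B lay at percentile 95.8 of all genes compared and ASNS at percentile 10.4.

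In TPM, HSPA5 went from 78.3 (Total) to 261 (SG) and DDIT4 from 77.1 to 207. PPP1R15A went from 49.3 to 138 TPM and CHAC1 from 41.1 to 107 TPM. ATF4, at 310 TPM (Total) and 390 TPM (SG), was the highest of the 10 in both. DDIT3 was at 39.6 TPM before and 33.3 TPM after purification, and ASNS at 77.3 and 41.6 TPM, so these were the 2 of the 10 with a lower value in SG. PPP1R15B was number 10 of the 10 in Total and number 4 in SG.

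Enrichment in SG went with transcript length over all genes, and the 10 were placed against it, a check chosen after their values were seen. Over 13531 genes Spearman's rho of the ratio and the length of the canonical transcript was 0.70, a description across genes, which are not independent replicates. With the genes cut into 4 groups of equal size by length, the median ratio in the shortest group (up to 1970 nt) was 0.809, and in the longest (5159 nt and above) it was 9.21. PPP1R15B, at 5259 nt, was 2.63 times the median of its length group. DDIT4 and CHAC1, both in the shortest group, were 3.29 and 3.17 times its median, and XBP1 and ATF4 in the same group 1.97 and 1.55 times. ASNS, at 2385 nt, was at 0.260 of the median of its length group, and TRIB3, at 2356 nt, at 0.633. HSPA5, at 3921 nt, was at 0.786 of the median of its length group. In all, 7 of the 10 lay above the median of their length group.

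**Figure D4:**
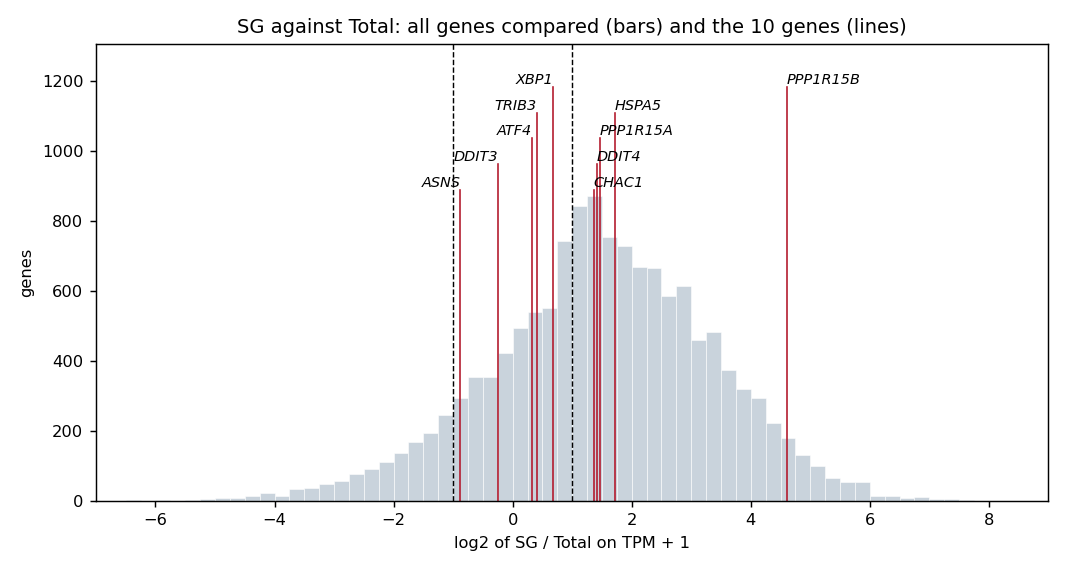
Distribution of the log2 ratio of SG to Total on TPM + 1 over all genes compared (bars, number of genes) with the 10 genes as vertical lines and the thresholds of -1 and 1 dashed, 1 library each. PPP1R15B lies far to the right, HSPA5, PPP1R15A, DDIT4 and CHAC1 lie near the middle of the bars, and ASNS and DDIT3 lie to the left of 0.

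Of 75 other pathway genes compared, 43 were enriched in SG and 3 were depleted, and their median ratio was 2.44. That was 57.3% enriched and 4.0% depleted, beside 62.9% and 9.45% of all genes compared. The ATF4 program had 19 of 29 enriched, with SLC7A1, a cationic amino acid transporter gene, at 28.7, KLHL24 at 17.2 and SLC38A2, a neutral amino acid transporter gene, at 16.1. In the sensor list 6 of 8 were enriched, with CREB3L2 (23.4), ERN1 (10.8) and MBTPS2 (8.28) the largest. In the eIF2 list 5 of 14 were enriched and 1 depleted, and the 3 largest were the kinases EIF2AK3 (28.6), EIF2AK2 (8.76) and EIF2AK4 (7.68). In the ER chaperone and degradation list 13 of 24 were enriched and 2 depleted, with SEL1L (27.7), CANX (24.2) and EDEM1 (15.8) the largest.

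The eCLIP value of a gene is deposited as log10 of a whole number plus 1, not scaled between libraries. The numbers of replicate 1 summed to 22700000 to 26200000 per library and those of replicate 2 to 4270000 to 10700000, rounded to 3 significant digits. The mean log10 value of ASNS lay at percentile 60.4 of all genes, and that of the other 9 genes between percentile 8.92 (DDIT4) and percentile 44.9 (TRIB3). Per kb of the summed span of the annotated transcripts of a gene, introns included, the median number over the 8 libraries ran from 0.478 (DDIT4) to 2.86 (CHAC1), beside a median of 2.21 over all genes. CHAC1 lay at percentile 84.1 and ATF4 at percentile 61.3 on that scale, and the other 8 between percentiles 9.94 and 33.7.

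None of the 10 genes passed limma, with Benjamini-Hochberg adjustment at 0.05 over all genes tested, in any of the 5 eCLIP comparisons. DDIT4 was not tested for G3BP2 against G3BP1 after AS, as it was above 0 in too few of those libraries. For G3BP1, AS against untreated, 0% of 18888 genes were called, with 16 genes higher and 30 lower at an unadjusted p below 0.05. For G3BP2, AS against untreated, 0.0105% of 19035 genes were called (2 genes), with 70 higher and 89 lower unadjusted. For G3BP2 against G3BP1, 0% of 19004 genes were called in untreated cells, with 84 higher and 17 lower unadjusted, and 0% of 18934 genes after AS, with 20 higher and 2 lower unadjusted. For the interaction of treatment and protein 0% of 18898 genes were called, with 14 higher and 13 lower unadjusted. The median log10 change of the 10 was -0.22 for G3BP1 and -0.06 for G3BP2 after AS, beside -0.12 and -0.08 over all genes tested. The pathway lists had no called gene in the 4 pairwise comparisons, and 1 lower and 1 higher at an unadjusted p below 0.05.

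DDIT4 was the 1 case among the 10 genes with an unadjusted p below 0.05 in these comparisons. With G3BP1 its log10 values were 1.53 and 1.04 in untreated cells and 0.00 and 0.00 after AS. With G3BP2 they were 1.32 and 0.00 in untreated cells and 1.04 and 0.00 after AS. For G3BP1 both AS libraries lay below both untreated libraries, which also held for HSPA5, and for G3BP2 the DDIT4 groups overlapped. HSPA5 also lay lower with G3BP2 than with G3BP1 in untreated cells without overlap (log10 change -0.265). The share of all genes with such a separation was not counted, so no result is drawn from it. DDIT4 was at 0 in 4 of the 8 libraries, so its values lie near the floor. The log10 change for G3BP1 was -1.29 ± 0.56 (SE, 2 libraries a group), with adjusted p = 1 in limma. For this and the other eCLIP changes, limma set the SE from a trend of spread over all genes. Such an SE does not measure the spread of a gene's own libraries. The summed transcripts of DDIT4 were at 3.64 times their untreated level in the rRNA-depleted libraries after AS. Without untreated G3BP2 replicate 2, which was at 0, the log10 change for G3BP2 was -0.80, and it was -0.14 with it.

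HSPA5 stood at 2.30 and 2.24 with G3BP1 in untreated cells and at 2.19 and 0.00 after AS, a log10 change of -1.18 ± 0.64 (SE, adjusted p = 1 in limma). With G3BP2 it stood at 2.20 and 1.81 in untreated cells and at 2.39 and 1.40 after AS. The lone 0 was in the G3BP1 AS library with the smallest total, replicate 2, and without it the change for G3BP1 was -0.08. ATF4 stood at 1.85 and 1.67 with G3BP1 in untreated cells and at 1.79 and 1.40 after AS. With G3BP2 it stood at 1.93 and 0.00 in untreated cells and at 1.92 and 1.69 after AS (change 0.84 ± 0.43, SE, adjusted p = 1 in limma), and without the untreated library at 0, replicate 2, the change was -0.13. Such a lone 0 beside 7 values of at least 1 was found in 2.03% of 15700 genes with 7 such values, and whether it is a failed estimate is not known.

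ASNS had the highest median value of the 10. With G3BP1 it stood at 2.81 and 2.23 before and 2.70 and 1.28 after AS, and with G3BP2 at 2.90 and 2.44 before and 2.80 and 1.95 after AS. Its log10 change was -0.53 ± 0.61 with G3BP1 and -0.30 ± 0.42 with G3BP2 (SE), and the groups overlapped for both proteins. PPP1R15B, the most SG-enriched gene of the 10, had 1.61 and 1.40 before and 1.43 and 1.11 after AS with G3BP1, and 1.63 and 1.20 before and 1.40 and 1.30 after AS with G3BP2. Its changes were -0.24 ± 0.63 and -0.07 ± 0.43 (SE). Per kb of summed transcript span it was at percentile 10.7 of all genes.

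TRIB3, XBP1, DDIT3, CHAC1 and PPP1R15A were above 0 in all 8 libraries, with TRIB3 between 1.66 and 2.39, XBP1 between 1.46 and 2.04, DDIT3 between 1.40 and 1.86, CHAC1 between 0.85 and 1.54 and PPP1R15A between 0.95 and 1.40. Their changes after AS ran from -0.25 (CHAC1) to 0.08 (DDIT3) with G3BP1 and from -0.08 (TRIB3) to 0.27 (CHAC1) with G3BP2. The interaction term, the AS change with G3BP2 minus that with G3BP1, was 1.15 ± 0.70 for DDIT4, 1.07 ± 0.68 for HSPA5 and 1.01 ± 0.69 for ATF4 (SE, adjusted p = 1 in limma), and -0.05 to 0.52 for the others. The terms of HSPA5 and ATF4 each rest on the 1 library at 0 named above. That of DDIT4 rests on libraries at 0 as well, 4 of its 8. Without untreated G3BP2 replicate 2 its change with G3BP2 was -0.80 in place of -0.14.

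**Figure D5:**
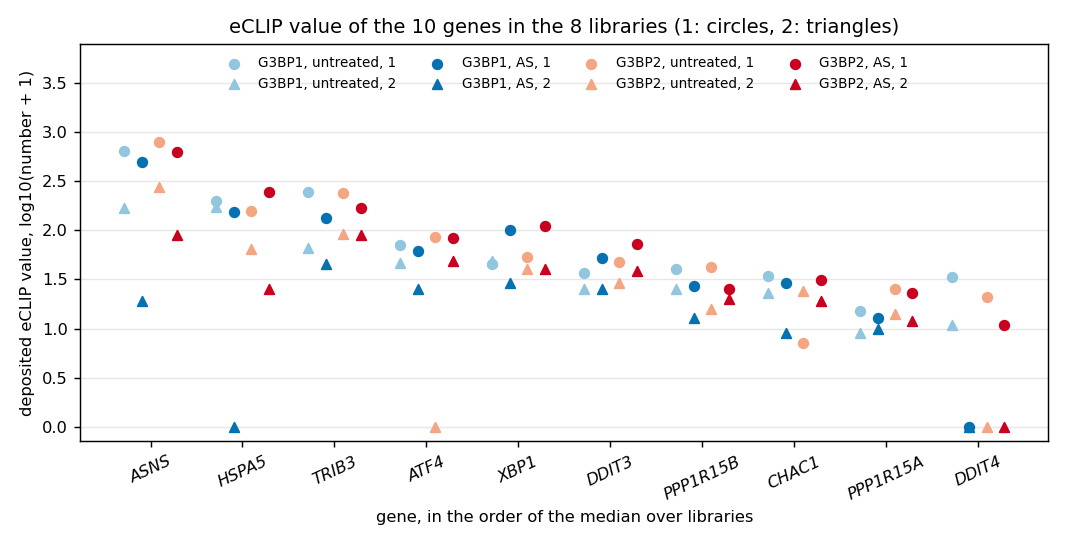
Deposited eCLIP value, log10 of a number plus 1, of the 10 genes in each of the 8 libraries, 2 per protein and condition (replicate 1 as circles, replicate 2 as triangles). In most genes replicate 2, the library with the smaller total, lies below replicate 1 of its group, and DDIT4 is at 0 in both G3BP1 libraries after AS.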

How the data were processed

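SH-SY5Y cells were profiled by eCLIP (8 libraries) and RNA-seq (7 libraries). SMInput samples (4) were not analysed here. RNA-seq reads were aligned by the authors with HISAT2 2.1.0 to hg38 per the labels, and eCLIP reads with STAR. The deposited TPM of the poly-A libraries cover protein-coding genes and give no depth. The deposited values of the rRNA-depleted libraries are headed TPM, but each value times the transcript length is a whole number of reads within 0.01 for at least 99.9993% of values above 0, so they are RPKM on 13291959 (untreated) and 11281587 (AS) reads. A read counts for every transcript it overlaps. Transcripts without a match in GENCODE 44 by versioned ID got no read count (2 of the 70). The eCLIP table was deposited as log10 values. The authors trimmed, aligned, called peaks and normalized to SMInput, but which steps the number includes is not given in the sources used here.

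RNA-seq ratios were called above 2 or below 0.5 with the higher library above 1, SG against Total on TPM + 1. eCLIP values were compared with limma 3.58.1 (R 4.3.3, intensity trend, genes above 0 in at least 2 of 4 or 4 of 8 libraries). All tests were two-sided and adjusted over all genes. Scripts were tested on simulated data. All members are named, and within a pathway list the 3 called genes with the largest absolute log2 ratio. Members and lists were chosen with earlier results of these data known. Other code used Python 3.11.15, pandas 2.3.3 and scipy 1.17.1. Pseudogenes annotated for ATF4 (4), ASNS (5), XBP1 (1) and HSPA5 (1) can exchange reads with them.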

Additional observations from a re-analysis of the deposited data

How the results depend on the processing

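With the median ratio of all genes set to 1, members called lower in Total went from 1 to 0, SG-enriched members from 5 to 1 and SG-depleted members from 0 to 3, and CHAC1 (-0.088) and DDIT4 (-0.046) changed sign in SG against Total. A fold of 1.5 gave 2 members lower in Total and 8 higher after AS, and a fold of 4 gave 1 SG-enriched member. The median AS ratio of all genes was already 1.20, so a fold of 1.5 lies near it. The shares of all genes at these folds are not given here. The counts at these folds, here and for the lists, show only how the calls move with the threshold. No alternative called a member after either knockdown. Genes of the 4 pathway lists called higher after AS numbered 12, and 7 with 1 added to both libraries, 22 at a fold of 1.5, 5 with the higher library above 10 and 5 with the median ratio set to 1. SG-enriched and SG-depleted list genes numbered 43 and 3, 28 and 0 at a fold of 4, and 24 and 22 with the median ratio set to 1. List genes higher and lower in Total numbered 2 and 18, 7 and 31 at a fold of 1.5, and 7 and 11 with the median ratio set to 1.

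No eCLIP alternative called a member. With a replicate block 0 genes were called in each eCLIP comparison, against 2 genes for G3BP2, AS against untreated, without it. The deviations of same-numbered libraries correlated at 0.14 to 0.55 over genes, but 2 numbers a group do not show that they pair the samples. For that comparison 0 genes were called with the same total, with the same total and replicate block and with no filter, and 11 without the trend. Leaving out each library in turn gave 0 to 12 genes, with 12 without AS G3BP2 replicate 1, 6 without AS G3BP2 replicate 2 and 0 without either untreated library. For G3BP2 against G3BP1 in untreated cells it gave 0 to 41 genes, with 41 without untreated G3BP1 replicate 1. The interaction called 6 genes with no filter. With 1 library left in a group, it is assumed to vary like the other group. Low read counts (16 untreated reads for DDIT3) and the smaller totals of eCLIP replicate 2 limit the precision, and the causes of these differences were not tested.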
